A study of Mus musculus with 4 samples.

Results

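Voltage-gated sodium and calcium channels are built from a large pore-forming protein (alpha for sodium, alpha1 for calcium) and accessory proteins that set its traffic and gating. In motor neurons, sodium channels clustered at the axon initial segment and the nodes of Ranvier start and carry the action potential. Calcium channels open the way to transmitter release at the nerve terminal and shape firing at the cell body. The genes described here are those whose symbol was Scn followed by digits and a or b, or began with Cacna, Cacnb or Cacng. This choice used names alone and found 41 of the 27189 gene entries, which carried 39 symbols, 13 of sodium channels and 26 of calcium channels. The second entries of Scn8a and Cacnb2 were listed at 0 in all 4 libraries. Scn2a1, the mouse symbol of a further sodium channel pore gene, was not found by this choice and is given only beside its relatives.

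The polyadenylated RNA came from motor neuron cell bodies cut by laser from stained ventral horn sections of spinal cord, and each of the 4 libraries was made from 1 animal. All mice were 3 months old, were bred on C57BL/6J x SJL/J, and carried a human SOD1 genomic fragment, with its own promoter, fused to YFP. The 2 wild-type libraries came from strain 592, with few copies of the normal transgene, and the 2 G85R libraries from strain 737, with many copies of the mutant transgene. Each genotype is thus 1 transgenic strain, and mutation, copy number and strain cannot be told apart. Neurons holding large aggregates were not collected.

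Expression is given in RPKM (reads scaled to the length of the transcript and to the mapped reads of the library). The RPKM that 1 read was worth had a median over genes of 0.0195 to 0.0226 in the 4 libraries, and the reads on genes, estimated from it, ran from 21560318 to 25186594. Of these, 81925 to 92871 reads lay on the channel genes. The 8 motor neuron markers were all above an RPKM of 1, with sums of 2472 and 2731 in the wild-type and 2205 and 2575 in the G85R libraries, and Chat, which makes acetylcholine, was at 66.3, 81.2, 49.6 and 65.5 (wild-type replicates 1 and 2, then G85R replicates 1 and 2, the order kept throughout). RNA of other cells was present. The 6 astrocyte markers summed to 33.8, 37.1, 124 and 49.0, and Gfap made most of the high value in G85R replicate 1 (11.5, 17.1, 91.9 and 28.4). The 5 markers of other spinal neurons, glycinergic, GABAergic and glutamatergic, summed to 186, 191, 217 and 200. The 6 oligodendrocyte markers summed to 860, 807, 1027 and 786, while the 6 microglial and the 4 endothelial markers summed to between 5.12 and 10.4. Markers of sensory neurons summed to between 1.23 and 1.52, nearly all of it P2rx3, with Mrgprd at 0. Those of skeletal muscle summed to 0.205 or less, with Myh1 at 0. In such bulk RNA, fewer cells of a type and less RNA per cell cannot be told apart.

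Of the 39 genes, 24 reached 1 RPKM on average in the 4 libraries and entered the test, 6 of sodium and 18 of calcium channels. Of these, 14 averaged 10 or more, and 10 lay between 1 and 10. Of the 15 genes under 1, 6 were between 0.1 and 1 and 9 were under 0.1. Each class of subunit was led by 1 or a few genes. The sodium channel pores summed to 127, 105, 128 and 107 RPKM. Among the calcium channel classes, the gamma subunits summed to 133, 159, 149 and 146, the alpha2delta subunits to 84.8, 85.9, 75.9 and 76.4, the pores to 56.9, 62.0, 54.1 and 50.5, and the beta subunits to 41.2, 42.8, 44.7 and 45.8. The alpha2delta sum and the pore sum were lower in both G85R libraries than in either wild-type library, and the beta sum was higher. Among the tested genes, only Cacna2d3 of the alpha2delta class and only Cacna1g of these pores did not overlap between genotypes. In the beta class these were Cacnb2 and Cacnb3. Over all rows tested, 41.2% did not overlap.

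**Figure D1:**
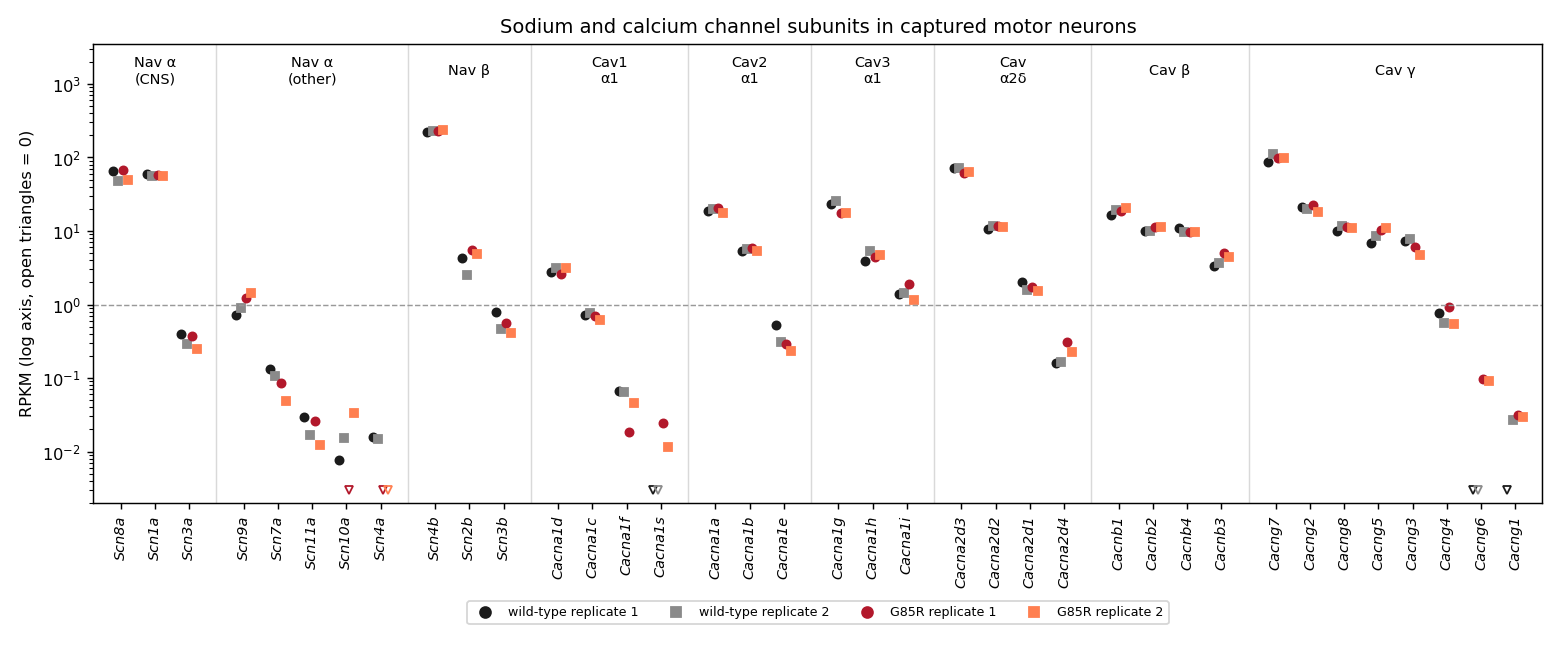
RPKM on a log axis of the channel genes described here in each of the 4 libraries, grouped by subunit class. Open triangles at the lower edge stand for an RPKM of 0, and the dashed line marks the RPKM of 1 required for testing. Scn4b lies above every other gene shown in all 4 libraries, and for most genes the 4 points lie close together.

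The comparison of genotypes asked whether the presymptomatic mutant motor neurons differed in these channels. With limma on log2(RPKM + 0.1) and a threshold of 0.05 on the p-value after Benjamini-Hochberg adjustment, 0 of the 24 tested channel genes were called, while 74 of all 11530 rows tested were (0.642%; 0.269% higher in G85R and 0.373% lower). At an unadjusted p under 0.05 there were 6 channel genes of 24, beside 11.0% of all rows. Of these 6, Cacng5, Cacnb3, Scn9a and Scn2b were higher in G85R (all rows: 4.66%) and Cacna1g and Cacng3 lower (all rows: 6.37%). Scn9a reached the minimum mean RPKM for testing only through the G85R libraries. In 9 of the 24 the genotypes did not overlap, 6 higher and 3 lower in G85R, beside 41.2% of all rows (17.3% higher and 23.9% lower). The median log2 difference of the 24 genes was 0.02, with 15 above 0, and that of all rows was -0.02. Without G85R replicate 1, the library with the most Gfap, limma again called 0 of the 24, and 4 had an unadjusted p under 0.05 (Cacna1g, Cacng3, Cacng5 and Scn9a). That number was 3 without wild-type replicate 1 and 3 without G85R replicate 2. The log-linear likelihood ratio test, which takes RPKM with 1 read added as counts, called 0 of the 41 entries, beside 0.228% of all entries, and gave 1 of the 41 an unadjusted p under 0.05, beside 1.29% of all entries.

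Over the 24 tested genes, the median absolute log2 difference was 0.125 between the 2 wild-type libraries, 0.125 between the 2 G85R libraries and 0.0858 between the genotype means. Over all 11530 rows these medians were 0.156, 0.145 and 0.124. The first pair of values compares single libraries and the last compares means of 2, which vary less, so their sizes are not comparable as they stand. The largest difference between genotype means among the tested channel genes was 0.66 on the log2 scale, for Scn9a, which entered the test only through the G85R libraries.

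**Figure D2:**
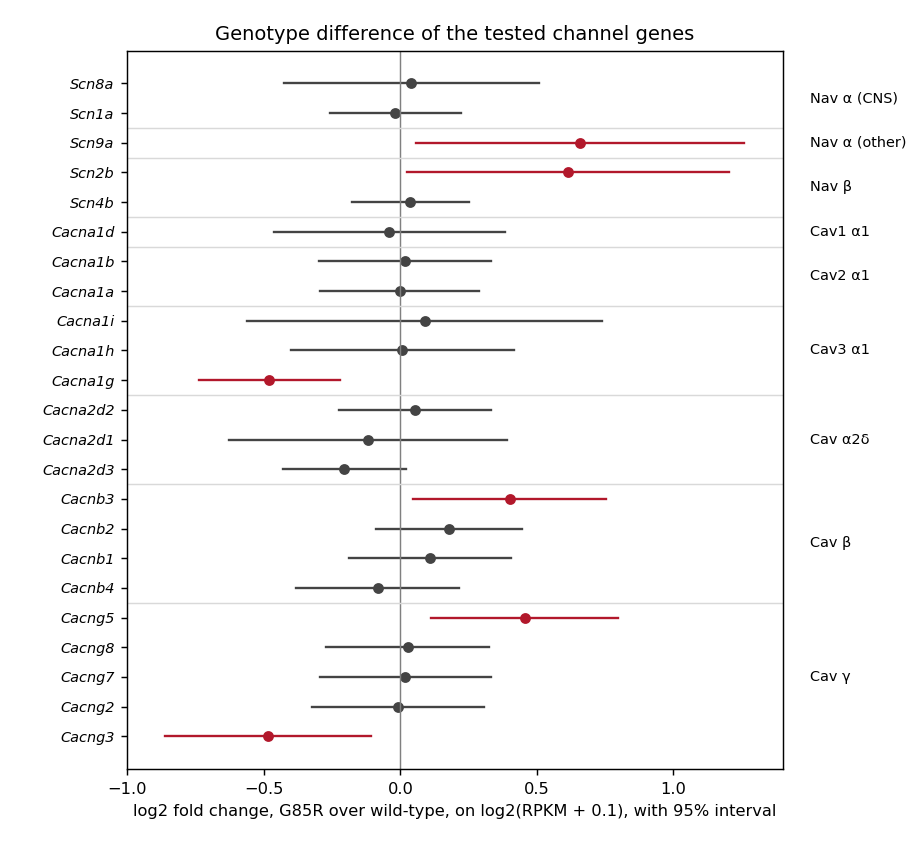
Log2 difference of G85R over wild-type on log2(RPKM + 0.1) for the tested channel genes described here, with limma's 95% intervals as bars. Red marks an unadjusted p under 0.05, which 6 genes had, and the other intervals include 0.

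Among the sodium channel pores, Scn8a and Scn1a held nearly all of the RPKM. Scn8a encodes the pore that prevails at mature initial segments and nodes, and Scn1a a pore of cell bodies and initial segments in the central nervous system. Scn8a (chr15:100785829-100876360, plus strand, NCBIM37) was at 65.6, 48.5, 68.4 and 49.2 RPKM. Both libraries numbered 1 were higher than both numbered 2, and the genotypes overlapped, with means of 57.1 ± 12.1 and 58.8 ± 13.6 (SD, n = 2 each) and a log2 difference of 0.04 (95% interval -0.43 to 0.51, limma adjusted p = 0.971). Scn1a (chr2:66108838-66278897, minus strand) was at 59.5, 55.3, 57.8 and 55.6, and its log2 difference of -0.02, which turned positive with rescaling by the median ratio, had an interval of -0.26 to 0.22 (adjusted p = 0.974). The intervals leave room for a difference in either direction of up to about 0.5 for Scn8a and about 0.3 for Scn1a on the log2 scale.

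The share of each pore depended on the length behind the RPKM. By RPKM, Scn8a made 51.8%, 46.1%, 53.4% and 46.1% of the sodium channel pore sum and Scn1a 47.1%, 52.6%, 45.1% and 52.1%. The length implied by the deposited values was 1239 bases for Scn8a, whose longest annotated transcript has 10944, and 4411 bases for Scn1a, whose longest has 8386. The estimated reads were also divided by the longest transcript, or by the implied length where that was longer. Scn8a then made 18.9%, 15.6%, 19.9% and 15.6%, and Scn1a 79.6%, 82.6%, 78.0% and 81.9%. The estimated reads may have been counted only over the implied length, and this division then lowers the genes whose implied length is short. Which of the pair was the more abundant RNA was therefore not settled by these values, while each gene had the same implied length in all 4 libraries, so its comparison between libraries did not involve it. Such a short implied length, less than 0.5 of the longest transcript, was found for 13 of the 39 genes.

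The pores are close relatives. Of all 75-base windows (the length of a read) of the transcripts, 2.59% in Scn1a, 3.57% in Scn9a, 5.08% in Scn3a and 3.85% in Scn2a1 also occur in another of these 4 chromosome 2 genes, so that a small part of their reads could not be placed at a single location. Scn8a shares no such window.

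The other sodium channel pores were low. Scn3a, an embryonic pore, lay between 0.247 and 0.401 RPKM and Scn2a1 between 4.14 and 5.06. Scn9a, known from nociceptive and sympathetic neurons (chr2:66318137-66473009, minus strand), was at 0.716, 0.900, 1.21 and 1.45 RPKM, from 108 to 213 estimated reads. Both G85R libraries were above both wild-type libraries (1.33 ± 0.172 against 0.808 ± 0.130, SD, n = 2 each), and the log2 difference of 0.66 (SE 0.25, interval 0.06 to 1.26) did not pass the adjustment (limma adjusted p = 0.417). With a wild-type mean under 1, Scn9a entered the test only through the G85R libraries, and its difference is not independent of that filter. The 4 sensory neuron markers that were found summed to 1.23 and 1.32 in wild-type and to 1.42 and 1.52 in G85R. Nearly all of this was P2rx3 (1.13, 1.23, 1.37 and 1.43). Avil and Trpv1 were under 0.1 and overlapped between genotypes, and Mrgprd was at 0. The part of sensory neuron RNA in the Scn9a values was not tested. Scn7a, Scn11a, Scn10a and Scn4a all had means under 0.1 RPKM. Scn4a, the skeletal muscle pore, was listed at 3 reads in each wild-type library and at 0 in both G85R libraries.

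The beta subunits of sodium channels are single-pass membrane proteins that tune gating and adhere to neighboring cells and matrix. Scn4b, the subunit tied to resurgent sodium current (chr9:44946520-44962235, plus strand), stood at rank 254 of the 27189 entries by mean RPKM. It was at 222.7, 231.0, 229.2 and 236.1, and its log2 difference of 0.04, which turned negative with quantile normalization, had an interval of -0.18 to 0.25 (adjusted p = 0.942). The 4 libraries lay close together.

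Scn2b, which is linked to the pore by a disulfide bond, is the chromosomal neighbor of Scn4b (chr9:44925959-44938153, plus strand) and was far lower, at 4.36, 2.55, 5.50 and 4.83 RPKM. Both G85R libraries were above both wild-type libraries, whose values differed from each other more than the G85R values did (5.17 ± 0.473 against 3.45 ± 1.28, SD, n = 2 each). The log2 difference was 0.61 (SE 0.25, interval 0.02 to 1.20, limma adjusted p = 0.435), and it ranged from 0.24 without wild-type replicate 2 to 0.99 without wild-type replicate 1. Scn3b lay between 0.407 and 0.789 RPKM and overlapped between genotypes.

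The calcium channel pores were spread over more genes. Cav3 (T type) channels open near the resting potential, Cav2 (P/Q, N and R type) channels serve transmitter release, and Cav1 (L type) channels give lasting currents. All 3 Cav3 genes, 2 of 3 Cav2 genes and 1 of 4 Cav1 genes reached a mean RPKM of 1. Cacna1g, a T type pore (chr11:94269705-94335414, minus strand), was at 23.4, 25.4, 17.5 and 17.4 RPKM. Both G85R libraries were below both wild-type libraries and nearly equal to each other (17.5 ± 0.0314 against 24.4 ± 1.43, SD, n = 2 each). The log2 difference was -0.48 (SE 0.11, interval -0.74 to -0.22, limma adjusted p = 0.151). Its p-value was the lowest among the channel genes and number 243 among the 11530 rows. Leaving out any library kept the difference between -0.54 and -0.42. Only a fit with a replicate block, which pairs same-numbered libraries, called Cacna1g, as described in the last section. Of the 8 motor neuron markers, 7 were lower on average in G85R (median log2 difference -0.21, 0 called), beside 6312 of all 11530 rows. Prph, Chat and Mnx1 lay below wild-type without overlap, beside 23.9% of all rows. The sum of the 8 markers, most of it Nefh and Prph, overlapped between genotypes (2472 and 2731 against 2205 and 2575). The part of such differences in the Cacna1g values was not tested.

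The remaining T type genes showed no such gap. Cacna1h was at 3.97, 5.28, 4.49 and 4.71 RPKM (log2 difference 0.01, interval -0.40 to 0.42, adjusted p = 0.994), and Cacna1i lay between 1.15 and 1.93 (0.09, interval -0.56 to 0.74). Cacna1h overlaps Tpsg1 on the opposite strand over 1.03% of its windows. Exons of Cacna1a, Cacna2d2, Cacnb1, Cacnb2, Cacnb4, Cacng2 and Scn9a also overlap exons annotated on the opposite strand. Whether the counting used strand is not given in the sources used here, and without strand the reads of such overlaps cannot be told apart.

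Cacna1a, the P/Q type pore that drives release at the neuromuscular junction (chr8:86912339-87164145, plus strand), was at 18.7, 19.9, 20.8 and 17.8 RPKM. The G85R values lay on both sides of the wild-type values, and the log2 difference of 0.00, whose sign changed with the scaling of the libraries, had an interval of -0.29 to 0.29 (limma adjusted p = 0.997). Cacna1b, the N type pore, was at 5.37, 5.68, 5.82 and 5.37 (0.02, interval -0.30 to 0.33, adjusted p = 0.982). Cacna1e, the R type pore, was under 1 RPKM throughout, at 0.523, 0.312, 0.289 and 0.233 on 194, 123, 98 and 84 reads. Among the L type genes, Cacna1d was at 2.74, 3.14, 2.58 and 3.15 (adjusted p = 0.968), with 4.89% of its windows shared with Chdh on the opposite strand. Cacna1c lay between 0.615 and 0.764, and Cacna1f, known from the retina, between 0.0185 and 0.0676. Cacna1s, the skeletal muscle pore, had about 4 and 2 reads in the G85R libraries and was listed at 0 in both libraries of the wild-type.

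As a share of the calcium channel pore sum, Cacna1g made 41.1%, 41.0%, 32.3% and 34.5%, and Cacna1a 32.9%, 32.1%, 38.4% and 35.2%. Cacna1g was the larger share in both wild-type libraries and Cacna1a in both G85R libraries. By type, Cav3 made 50.5%, 51.8%, 44.1% and 46.1%, Cav2 43.2%, 41.8%, 49.7% and 46.3%, and Cav1 6.22%, 6.40%, 6.12% and 7.57%. These shares sum to 100 in each library, so a lower share of Cav3 raises the others. With 2 libraries against 2, an exact permutation test cannot give a two-sided p below 0.333, and no test of the shares was made. With reads divided by the longest transcript, Cav3 made 68.8%, 70.7%, 65.3% and 66.2%, and Cacna1g was the larger share in all 4 libraries (48.1%, 47.2%, 38.5% and 40.5%, beside 14.1%, 13.6%, 16.9% and 15.2% for Cacna1a). The implied length was 1541 bases for Cacna1a and 4430 for Cacna1g, against longest transcripts of 7926 and 8383. The limit given for the Scn8a shares therefore applies.

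**Figure D3:**
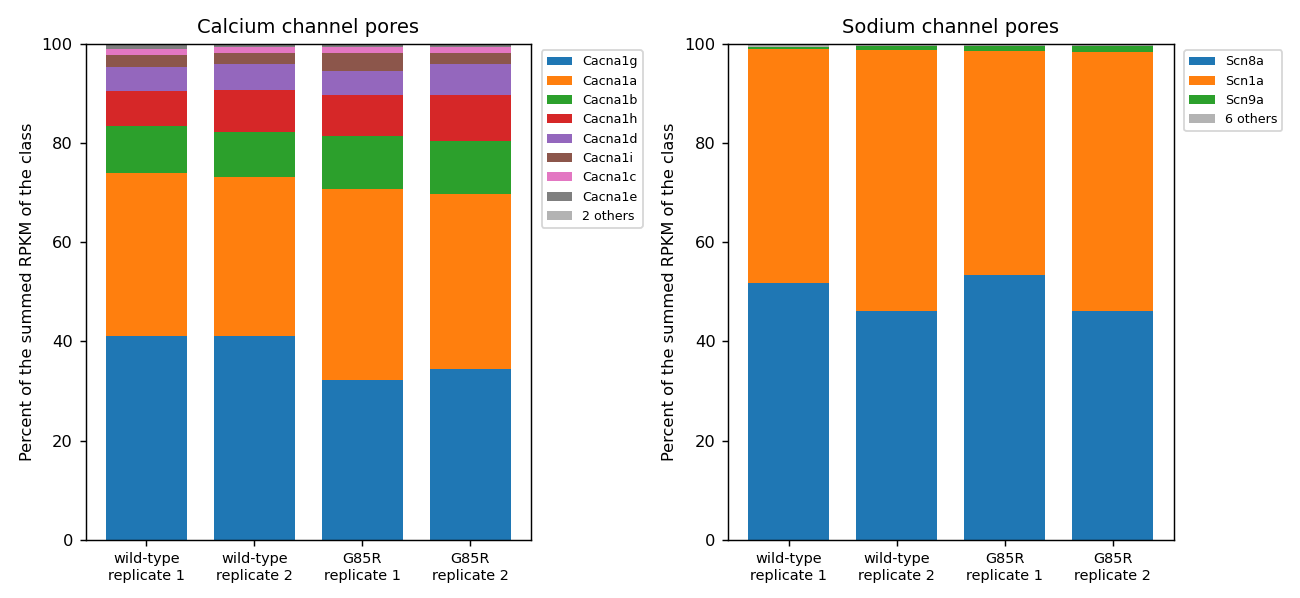
Share of each gene in the summed RPKM of the calcium channel pores (left) and of the sodium channel pores (right) in each library, in percent. Cacna1g takes 41.1% and 41.0% of the wild-type bars and 32.3% and 34.5% of the G85R bars, while Scn8a and Scn1a divide the sodium channel bars almost evenly by RPKM.

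Cav1 and Cav2 pores hold a site in the loop after their first repeat where the cytosolic beta subunit binds, and T type pores lack it. The sequences show its core in the genes of both types in which it was located, 5′ to 3′ along the coding strand from NCBIM37, each within 1 exon, with the codons from glycine and tyrosine to tryptophan and isoleucine in capitals.
Cacna1a: ctcaatGGATACATGGAGTGGATCtcaaaa
Cacna1b: ctgaatGGGTACTTGGAGTGGATCttcaag
Cacna1e: ttgaacGGCTACCGTGCCTGGATAgacaaa
Cacna1c: ctcaaaGGCTACCTGGACTGGATCacccag
Cacna1d: ctcaagGGCTACCTGGACTGGATCacccag
They lie at chr8:87060042-87060071 (Cacna1a, plus strand), chr2:24575465-24575494 (Cacna1b, minus), chr1:156340436-156340465 (Cacna1e, minus), chr6:118684930-118684959 (Cacna1c, minus) and chr14:30955792-30955821 (Cacna1d, minus). Of the 30 bases, 6 differ from Cacna1a in Cacna1b, 8 in Cacna1c, 8 in Cacna1d and 13 in Cacna1e. Cacna1a, Cacna1b, Cacna1c and Cacna1e share no 75-base window with another gene.

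All 4 genes of the beta subunits that bind there were expressed above an RPKM of 1, and 3 of the 4 were higher on average in G85R. Cacnb1 was at 16.7, 19.4, 18.5 and 20.3 RPKM (log2 difference 0.11, interval -0.19 to 0.41, adjusted p = 0.843), and it led the class by RPKM with a mean share of 42.9%. With reads divided by the longest transcript, its mean share was 36.9% and that of Cacnb4 36.1%, and Cacnb4 led in wild-type replicate 1 (41.3% against 34.2%). Implied lengths were 1802 bases for Cacnb1 and 7913 for Cacnb4, against longest transcripts of 3396 and 8225. The limit given for the Scn8a shares applies here too. Cacnb2 was at 9.98, 10.1, 11.5 and 11.3, without overlap (0.18, interval -0.09 to 0.45, adjusted p = 0.651). Cacnb4 was at 11.1, 9.63, 9.75 and 9.78 (-0.08, interval -0.38 to 0.22, adjusted p = 0.895), so that wild-type replicate 1 alone stood above the other libraries. Cacnb3 (chr15:98462651-98474961, plus strand) was at 3.37, 3.70, 4.98 and 4.42 RPKM, the lowest of the class, whereas by the longest transcript Cacnb2 was the lowest (a mean share of 12.2%, against 14.8% for Cacnb3). Both G85R libraries were above both wild-type libraries (4.70 ± 0.399 against 3.53 ± 0.232, SD, n = 2 each), by 0.40 on the log2 scale (SE 0.15, interval 0.05 to 0.75, limma adjusted p = 0.403). Its highest value was in G85R replicate 1, the library with the most Gfap. The part of astrocyte RNA in it was not tested. The log2 difference was 0.32 without G85R replicate 1 and 0.34 without wild-type replicate 1. It was 0.47 without wild-type replicate 2 and 0.49 without G85R replicate 2.

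The alpha2delta subunits, which sit outside the membrane and carry the pore to the surface, were mostly Cacna2d3 (chr14:29718133-30535050, minus strand). It was at 72.0, 72.7, 62.0 and 63.4 RPKM, on 6121 to 8341 estimated reads. Both G85R libraries were lower than both wild-type libraries, and the replicates of each genotype were close (62.7 ± 0.957 against 72.3 ± 0.499, SD, n = 2 each). The log2 difference was -0.21 (SE 0.09, interval -0.43 to 0.02, limma adjusted p = 0.496). Cacna2d3 made 84.9%, 84.5%, 81.7% and 83.0% of its class. Cacna2d2 was at 10.7, 11.6, 11.8 and 11.2 (0.05, interval -0.22 to 0.33, adjusted p = 0.933). Cacna2d1, which like Cacna2d2 encodes a target of gabapentin, was at 2.00, 1.55, 1.72 and 1.52 (-0.12, interval -0.63 to 0.39, adjusted p = 0.919). Cacna2d4, known from the retina, lay between 0.160 and 0.305 and was not tested.

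The gamma genes take their name from a subunit of the muscle calcium channel, but Cacng2, Cacng3, Cacng4, Cacng5, Cacng7 and Cacng8 encode proteins better known as auxiliary subunits of AMPA type glutamate receptors. Of the 8 genes, 5 reached a mean RPKM of 1, and all 5 belong to this group. Cacng7 (chr7:3333055-3367810, plus strand) was at 86.6, 110, 98.0 and 99.9 RPKM, with both G85R libraries inside the range of the wild-type pair (0.02, interval -0.30 to 0.33, adjusted p = 0.982). It made 65.1%, 69.5%, 65.7% and 68.7% of the gamma sum. Cacng2, known as stargazin, was at 21.2, 19.7, 22.5 and 18.4 (-0.01, interval -0.33 to 0.31, adjusted p = 0.987), and its sign changed with rescaling and with quantile normalization. Cacng8, next to Cacng7 on chromosome 7, was at 10.1, 11.7, 11.3 and 10.9 (0.03, interval -0.27 to 0.33, adjusted p = 0.970). For these 3 genes the genotypes overlapped.

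Cacng5 and Cacng3 differed in opposite directions. Cacng5 (chr11:107735919-107776369, minus strand) was at 6.92, 8.61, 10.3 and 11.0 RPKM, with both G85R libraries above both wild-type libraries (10.6 ± 0.521 against 7.77 ± 1.20, SD, n = 2 each). The log2 difference was 0.46 (SE 0.14, interval 0.11 to 0.80, limma adjusted p = 0.314), and it ranged from 0.30 without wild-type replicate 1 to 0.61 without wild-type replicate 2. Cacng3 (chr7:129815258-129912905, plus strand) was at 7.36, 7.78, 6.12 and 4.72 RPKM, on 204, 229, 155 and 127 reads. Both G85R libraries were below both wild-type libraries (5.42 ± 0.989 against 7.57 ± 0.293, SD, n = 2 each), by -0.48 on the log2 scale (SE 0.16, interval -0.86 to -0.11, limma adjusted p = 0.330), with a range from -0.30 without G85R replicate 2 to -0.67 without G85R replicate 1. Neither passed the adjustment. Cacng4 lay between 0.537 and 0.913 RPKM. The genes of the muscle type gamma subunits were at the floor, Cacng1 with 0 or 1 read per library and Cacng6 with 2 reads in each G85R library and 0 in the others.

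**Figure D4:**
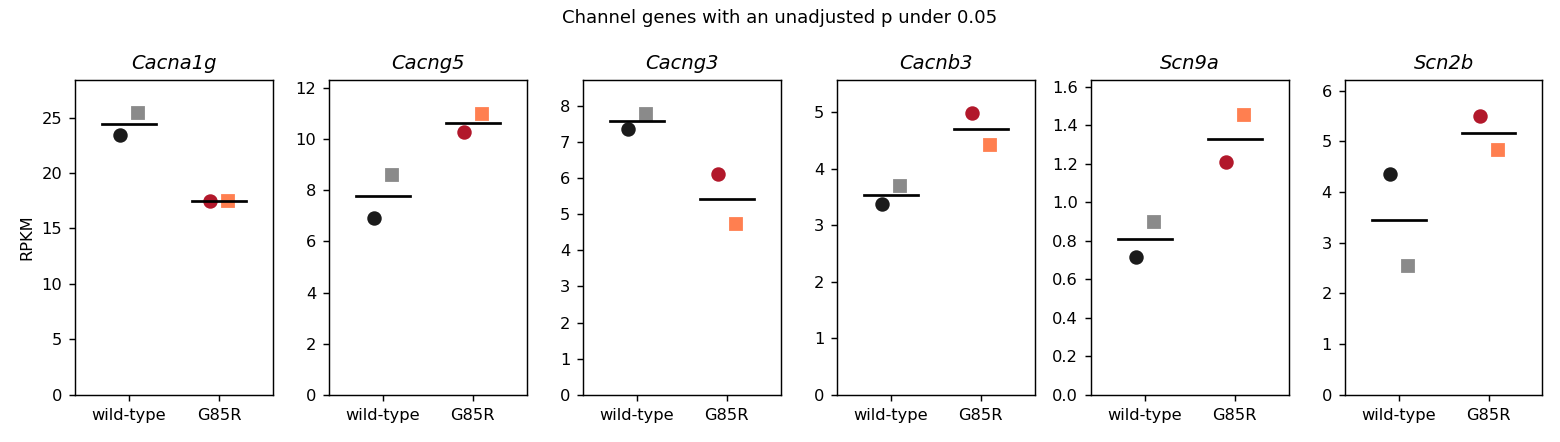
RPKM of the 6 channel genes with an unadjusted p under 0.05, on axes that start at 0, with the 2 libraries of each genotype as points (circles for replicate 1, squares for replicate 2) and their mean as a line. In each panel the genotypes do not overlap, and Cacna1g has the tightest G85R pair, at 17.5 and 17.4. Scn9a reached the minimum mean RPKM for testing only through the G85R libraries.

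Proteins that bind these channels were also compared. Of the 11 sodium channel partners, all were tested and 0 were called, with 2 at an unadjusted p under 0.05, both lower in G85R (all rows: 11.0% in either direction and 6.37% lower). Fgf13, an intracellular modulator of sodium channel inactivation, was at 12.2, 11.4, 7.40 and 8.65 RPKM (log2 difference -0.56, limma adjusted p = 0.167). Nrcam, an adhesion molecule of the nodes, was at 60.0, 55.5, 45.6 and 41.5 (-0.41, adjusted p = 0.213). In both genes the G85R libraries lay below the wild-type libraries. The highest of the list was S100a10, which aids the surface expression of a pain neuron pore, at 289, 246, 300 and 305. Ank3, which anchors the channels at the initial segment, was at 36.9, 30.2, 36.0 and 28.6. Its libraries numbered 1 were above those numbered 2, as for Scn8a. Of the 24 tested channel genes, 13 had replicate 1 above replicate 2 in both genotypes or below it in both.

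Of the 14 calcium channel partners, 10 were tested and 0 were called, with 2 at an unadjusted p under 0.05, again both lower in G85R (all rows: 6.37% lower). They were Rimbp2, at 11.4, 10.1, 7.78 and 8.34 RPKM (-0.41, limma adjusted p = 0.298), and Rims1, at 16.3, 16.4, 13.2 and 13.5 (-0.29, adjusted p = 0.396), which together tether calcium channels at release sites. In 5 of the 10 tested partners the G85R libraries lay below the wild-type libraries without overlap, and in 1 above, beside 23.9% and 17.3% of all rows. The calmodulin gene Calm3, the highest of the list, was at 795, 775, 864 and 819. Of 11 other related channels and subunits, 7 were tested and 0 had an unadjusted p under 0.05. The highest was Nalcn, the sodium leak channel, at 18.9, 17.8, 17.5 and 17.3.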

How the data were processed

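Per the labels and the study's methods, the authors mapped 75-base reads with Bowtie 0.12.3 to mm9 and a splice junction database built from UCSC Known Genes, kept reads with a single location, and quantified each gene cluster with Cufflinks. The deposited values are RPKM for 27189 entries per library, as calculated and with 1 read added by the authors. Their difference is the RPKM of 1 read, and dividing by it gave estimated reads. Under 20 reads, 87.9% of these estimates were within 0.02 of a whole number for entries with 1 transcript but 8.05% for those with several. The estimated reads were therefore not given to a count test. The log-linear test took RPKM with 1 read added, not these estimates, as counts. The implied length behind an RPKM rests on mapped reads inferred over 5020 genes. Of these genes, 57.3% had an implied length within 1% of that of their annotated transcript.

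Libraries were grouped by genotype, 2 against 2. As 2 transgenic animals stand for a genotype, p-values set the genotype difference against the spread between their libraries. The eBayes step moderates this spread with that of all rows tested. The test was limma (version 3.58.1, run in R 4.3.3; lmFit, eBayes with a trend) on log2(RPKM + 0.1) over the 11530 rows whose mean RPKM was 1 or more, with Benjamini-Hochberg adjustment over all of them, and the fit was tested on simulated data. Fold changes on this scale understate those of low genes. The remaining steps used Python 3.11.15, numpy 2.4.6 and pandas 2.3.3, and figures were drawn with matplotlib 3.10.9. Genes, sequences and windows were taken from NCBIM37, the assembly behind mm9, and its annotation, which held all 39 genes.

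The genes and lists were chosen with earlier results of these data known. Values in every library are given for the leading gene of each class, genes averaging 10 RPKM or more and genes with an unadjusted p under 0.05, and for other genes that complete a class. Some genes and sequences are not reported here. Of the partner lists, Sptbn4 was matched under an older symbol. Alternatives were other pseudocounts (1 and 0.01), minima (0.1, 5 or none), scalings, eBayes settings, a replicate block, the value with 1 read added, the log-linear test and leaving out each library.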

Additional observations from a re-analysis of the deposited data

How the results depend on the processing

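The number of channel genes called stayed at 0 in all settings but 2. With a replicate block, Cacna1g was called (1 gene, adjusted p = 0.0191, where the range over the other limma settings was 0.121 to 0.390 and the log-linear test gave 1), beside 527 of 11530 rows in all. The deviations of same-numbered libraries correlated at 0.22 over all rows. The study plots G85R over wild-type ratios for replicate pairs of the same number. Neither the labels nor the study's methods say what such a pair shared, so the fit without the block is the reported one. With no filter on low values 2 genes were called, Cacng6 and Scn4a, both at 0 in one genotype and at 2 or 3 reads in each library of the other, beside 112 of 27189 rows. Without 1 library, calls ranged from 0 to 0, unadjusted p under 0.05 from 3 to 4 genes (3 without wild-type replicate 1 and 3 without G85R replicate 2), the median log2 difference from 0.0082 to 0.087, and genes at a mean RPKM of 1 from 23 to 24. A minimum of 5 left 3 genes at an unadjusted p under 0.05, and no filter gave 18 of 41 entries without overlap, beside 26.5% of all 27189.

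Differences near 0 changed sign. With rescaling by the median ratio Cacna1a was at 0.021, Cacng2 at 0.013 and Scn1a at 0.0049, and with quantile normalization Cacna1a was at 0.014, Cacng2 at 0.0077 and Scn4b at -0.020. Without 1 library the log2 differences ran from -0.11 to 0.11 for Cacna1a, -0.18 to 0.10 for Cacna1d, -0.0031 to 0.11 for Cacna2d2, -0.19 to 0.020 for Cacnb4, -0.26 to 0.44 for Cacna1i, -0.20 to 0.21 for Cacna1h, -0.29 to 0.055 for Cacna2d1, -0.041 to 0.074 for Cacna1b, -0.15 to 0.13 for Cacng2, -0.16 to 0.19 for Cacng7, -0.078 to 0.13 for Cacng8, -0.071 to 0.035 for Scn1a and -0.20 to 0.28 for Scn8a. Dividing reads by the longest transcript, chosen after seeing the data, gave mean shares of 17.5% for Scn8a (49.4% by RPKM), 43.6% for Cacna1g (37.2%), 87.2% for Cacna2d3 (83.5%), 36.9% for Cacnb1 (42.9%), 57.6% for Cacng7 (67.2%), 5.16% for Cav1 (6.58%), 27.1% for Cav2 (45.3%) and 67.8% for Cav3 (48.2%). Only the length changed here. Where the implied length was longer than the longest transcript, the implied length was used. For Cacng8 these were 775 and 663 bases. If reads were counted only over the implied length, this alternative puts genes with a short implied length too low.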
